A study of Mus musculus with 7 samples.

Results

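The 3 untreated ChrRNA-seq libraries of the series, DMSO replicates 1, 2 and 3, were compared with one another, with replicate 3 set against replicates 1 and 2. They are 3 of 7 libraries, and the comparison used the 13533 of 22556 genes that averaged 1 RPM or more over the 3 libraries (RPM is the read pairs of a gene scaled to the depth of its library), together with the 386 X-linked genes that have an allelic ratio. All 3 came from mouse embryonic stem (mES) cells of a Cast x 129S background, clone C7H8, in which a TetOn promoter replaces the endogenous Xist promoter on the Cast allele. All 3 received DMSO for 6 h and then DMSO with doxycycline (Dox) for 24 h, so Xist was induced in every library and no inhibitor was present in any. The other 4 libraries received the METTL3 inhibitor STM2457 in place of DMSO, with 2 libraries at 10 µM and single libraries at 20 µM and 30 µM. The line is 1 clone, and the cells were grown with LIF on mitomycin-inactivated mouse fibroblasts, whose RNA can enter a library. The labels put the 3 DMSO libraries in one group and give no date, batch or passage, and replicate 3 is a single library, so every difference below compares this library with the other two and has no replicate of its own.

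In ChrRNA-seq, nuclei are lysed in urea and the insoluble chromatin fraction is kept, which enriches nascent, still intron-containing transcripts and RNAs that stay on chromatin, such as Xist and Malat1. Reads were counted over the whole gene, introns included, so long genes with long introns collect most reads, while spliced mRNA and small structured RNAs that leave or wash off chromatin collect few. mES cells in serum and LIF express naive pluripotency factors, and glycolysis is among the pathways they use.

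Depth was 20915215, 28030180 and 21472037 read pairs on genes in replicates 1, 2 and 3. Replicates 1 and 2 lay close together, with Pearson's r of 0.992 for log2(RPM + 1) across the 13533 genes, and 22 genes (0.163%) differed at least 2-fold between them. Replicate 3 stood apart from both. It had r of 0.958 with replicate 1 and 0.953 with replicate 2, and 1893 (14.0%) and 1970 (14.6%) genes differed at least 2-fold. A gene at least 2-fold above both other libraries was found 1 time for replicate 1, 12 times for replicate 2 and 334 times for replicate 3, and a gene at least 2-fold below both was found 2, 4 and 1054 times. The count for replicate 3 is 2.47% of genes tested for the higher direction and 7.79% for the lower.

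In limma on log2(RPM + 1), 1744 genes (12.9%) were higher and 3874 (28.6%) lower in replicate 3 than in the mean of replicates 1 and 2 at an adjusted p under 0.05, which is 41.5% of the genes in either direction. The spread in this fit comes from 2 libraries with 1 residual degree of freedom and is shared over genes, and replicate 3 is assumed to vary as they do. The fit treated the shared spread as known without error, and with both 10 µM libraries added as a group of their own the smallest adjusted p of any gene was 1.26e-06, so the far smaller p-values below are read only as calls. Nothing in the labels says that the replicates came from separate cultures, so p-values measure only the spread between these libraries, which may be technical. The direction of the counts depended on the scaling, since the median difference of all genes was -0.18 on the log2 scale with the deposited scaling and -0.015 with TMM factors, which gave 2723 higher and 2837 lower genes. Differences of gene groups are therefore read against -0.18. All 334 higher and all 1054 lower genes past 2-fold were also called by limma.

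Among the RNAs with the highest levels, the lowest differences were those of the RNA components of 2 endonucleases. Rmrp is the RNA of RNase MRP, which cleaves precursor ribosomal RNA, and Rpph1 is the RNA of RNase P, which trims the 5′ ends of transfer RNA precursors. Both are short, unspliced and folded, and their sequences are shown because they are the extreme of the short, intron-free genes described next. They were read from the GENCODE M21 transcripts (GRCm38), on the minus strand of chr4:43492788-43493058 for the whole 271 bases of Rmrp and chr14:50807449-50807767 for the first 300 of the 319 bases of Rpph1, and both are noncoding exons printed without capitals, since no part is singled out.
Rmrp: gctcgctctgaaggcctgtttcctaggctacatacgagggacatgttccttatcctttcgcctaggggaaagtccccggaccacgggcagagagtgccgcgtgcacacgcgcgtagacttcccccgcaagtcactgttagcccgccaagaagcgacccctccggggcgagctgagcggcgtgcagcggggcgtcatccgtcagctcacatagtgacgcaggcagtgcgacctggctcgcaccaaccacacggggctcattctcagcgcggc
Rpph1: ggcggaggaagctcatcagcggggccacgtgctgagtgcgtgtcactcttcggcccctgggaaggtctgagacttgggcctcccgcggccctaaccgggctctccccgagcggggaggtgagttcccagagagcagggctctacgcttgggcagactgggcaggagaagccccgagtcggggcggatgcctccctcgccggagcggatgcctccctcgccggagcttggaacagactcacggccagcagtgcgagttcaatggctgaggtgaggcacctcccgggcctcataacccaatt
Rmrp was at 4415, 3959 and 507 RPM in replicates 1, 2 and 3. This is 8.25-fold lower in replicate 3, with a log2 difference of -3.04 ± 0.10 (SE) and an adjusted p of 6.71e-204. Rpph1 was at 748, 807 and 78.8 RPM, a log2 difference of -3.29 ± 0.12 (adjusted p = 7.7e-148). In both, replicates 1 and 2 lay next to each other and replicate 3 lay far below them. Terc, the RNA template of telomerase, was at 14.6, 20.9 and 3.77 RPM (log2 difference -1.95), so all 3 of the structured small RNAs tested were past 2-fold, while the other 3 on that list, Scarna6, Scarna13 and Snord17, were listed at 0 in each library. Rmrp and Rpph1 together took 0.516%, 0.477% and 0.0586% of the read pairs in the 3 libraries.

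The largest differences in the other direction were at 3 genes. Lars2 encodes the mitochondrial leucyl-tRNA synthetase and spans 123366927 to 123462666 on chromosome 9 (GRCm38, plus strand). It was at 72.6, 76.3 and 1505 RPM, which is 20.2-fold higher in replicate 3 (log2 difference 4.32 ± 0.14, adjusted p = 1.28e-204). Cmss1, which spans 57302000 to 57606864 on the minus strand of chromosome 16, was at 448, 434 and 5904 RPM (log2 difference 3.74 ± 0.11, adjusted p = 6.63e-259). Filip1l lies inside the span of Cmss1 on the other strand, from 57353093 to 57573126, and was at 2.773, 3.996 and 87.84 RPM (log2 difference 4.35). These 3 genes took 0.0523%, 0.0514% and 0.750% of the read pairs. They were also far above the DMSO levels of replicates 1 and 2 in the single 20 µM and 30 µM libraries, where Lars2 was at 27747 and 896 RPM. This was not so in the 10 µM libraries, where Lars2 was at 66.5 and 72.7 RPM. Cmss1 was at 23763.5 RPM at 20 µM and 2524.8 RPM at 30 µM, so levels of these genes differed widely between single libraries. The origin of these reads was not tested.

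Apart from these, the 20 highest differences by the naming rule included developmental and neuronal genes, some of them with long spans. Bcl11a, a zinc finger transcription factor, was at 10.7, 5.57 and 79.4 RPM. Slc4a10, a bicarbonate transporter of neurons, was at 1.58, 0.714 and 21.6 RPM. Gap43, a growth cone protein, was at 37.6, 17.4 and 157 RPM. Replicate 3 was the highest of the 3 in each, and replicate 2 was the lowest. Dgkb (diacylglycerol kinase beta) was at 39.5, 25.3 and 235 RPM, and Meis2, a TALE homeobox factor, was at 7.27, 5.64 and 40.7 RPM. The imprinted gene Peg10, derived from a retrotransposon, was at 15.9, 15.5 and 102 RPM, and Setd1b, a histone H3K4 methyltransferase, was at 10.6, 6.74 and 50.4 RPM. Of the 20 genes, 9 spanned at least 100 kb, Cmss1 and Filip1l among them, while Peg10 spanned 13.2 kb and Setd1b 26.4 kb. Of the 13533 genes tested, 1210 spanned 100 to 200 kb, 684 spanned 200 to 500 kb and 190 spanned 500 kb and over.

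Among the 20 lowest differences, none spanned 100 kb and 14 spanned less than 20 kb. Of the 13533 genes tested, 76 spanned under 1 kb, 193 spanned 1 to 2 kb and 1092 spanned 2 to 5 kb. A further 1672 spanned 5 to 10 kb and 2632 spanned 10 to 20 kb. Copz2, a subunit of the COPI vesicle coat, was at 25.2, 31.3 and 1.21 RPM (log2 difference -3.72 ± 0.28, adjusted p = 8.12e-37). Ldhb, the lactate dehydrogenase B subunit, was at 142, 213 and 22.6 RPM, and Eno2, the neuronal enolase, was at 26.9, 26.3 and 2.93 RPM. Pygl, the liver form of glycogen phosphorylase, was at 11.95, 13.16 and 0.838 RPM. Ctsa, a lysosomal protease, was at 49.2, 46.3 and 6.85 RPM, and Fabp3, a fatty acid binding protein, was at 48.2, 58.7 and 7.87 RPM. In each of these genes the highest value was at least 6 times that of replicate 3.

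**Figure D1:**
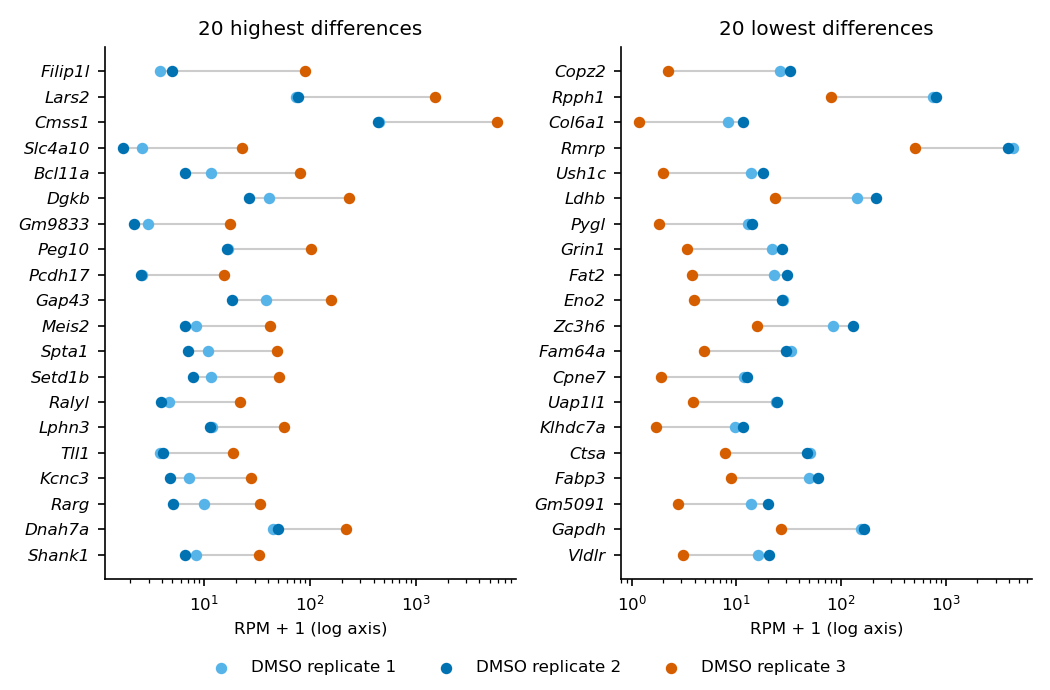
RPM + 1 on a log axis for the 20 genes with the highest and the 20 with the lowest differences by the naming rule, 1 point per DMSO library. Replicate 3 lies at least 2-fold outside both other libraries in every row, as the rule requires, with Lars2 at 1505 RPM and Copz2 at 1.21 RPM as examples of the 2 sides.

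Gene length separated replicate 3 from the others in a graded way. The median difference was -1.03 for the 76 genes that span less than 1 kb, -0.62 for the 1092 genes of 2 to 5 kb, -0.23 for the 2632 genes of 10 to 20 kb, -0.02 for the 2014 genes of 50 to 100 kb and 0.28 for the 190 genes of 500 kb and over. Across the 13533 genes, Spearman's rho between the difference and the span was 0.318, against 0.100 for replicate 2 minus replicate 1. These are descriptions across genes of the same libraries, which are not independent replicates. Over all genes tested, 28.6% were called lower and 12.9% higher. Of the genes under 1 kb, 54 of 76 were called lower and 3 higher, and of those of 500 kb and over, 33 of 190 were called lower and 76 higher. The longest and shortest classes therefore had opposite directions, and the zero crossing moved from the 100 to 200 kb class to the 20 to 50 kb class with TMM factors.

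The share of the span that is exon showed the same separation among protein-coding genes. Where exons made up less than 5% of the span, the median difference was 0.09 over 1664 genes, and where they made up 40% or more it was -0.53 over 2230 genes. Genes with 1 exon had a median of -0.68 (215 genes) and genes with 20 exons and over had -0.13 (2490 genes). Spearman's rho of the difference with the exonic percent was -0.310 over 13431 genes. Long genes hold little exon sequence, so length and exonic share cannot be told apart here.

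The large classes of RNA had nearly the same median. Protein-coding genes had a median difference of -0.18 (12924 genes), long noncoding RNAs -0.17 (443 genes) and pseudogenes -0.16 (60 genes). The 4 genes of other RNA types tested had -1.19. Shares of read pairs were taken over all genes, tested or not. The 26 genes of other RNA types took 0.0808%, 0.0893% and 0.0124%, with Rpph1 among them at 748, 807 and 78.8 RPM. Protein-coding genes took between 95.6% and 95.9% of the read pairs in all 3 libraries, and X-linked genes took 4.53%, 4.61% and 4.61%. Long noncoding RNAs took 3.87%, 3.87% and 3.64%. That class counts Rmrp, at 4415, 3959 and 507 RPM, so its lower share in replicate 3 is not read as a trait of long noncoding RNAs. Genes under 1 kb took 0.578% and 0.547% of the read pairs in replicates 1 and 2 but 0.0854% in replicate 3. Rmrp and Rpph1 alone made up 0.516%, 0.477% and 0.0586%, so most of this fall was theirs. Genes of 500 kb and over took 3.98%, 4.03% and 4.63%.

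**Figure D2:**
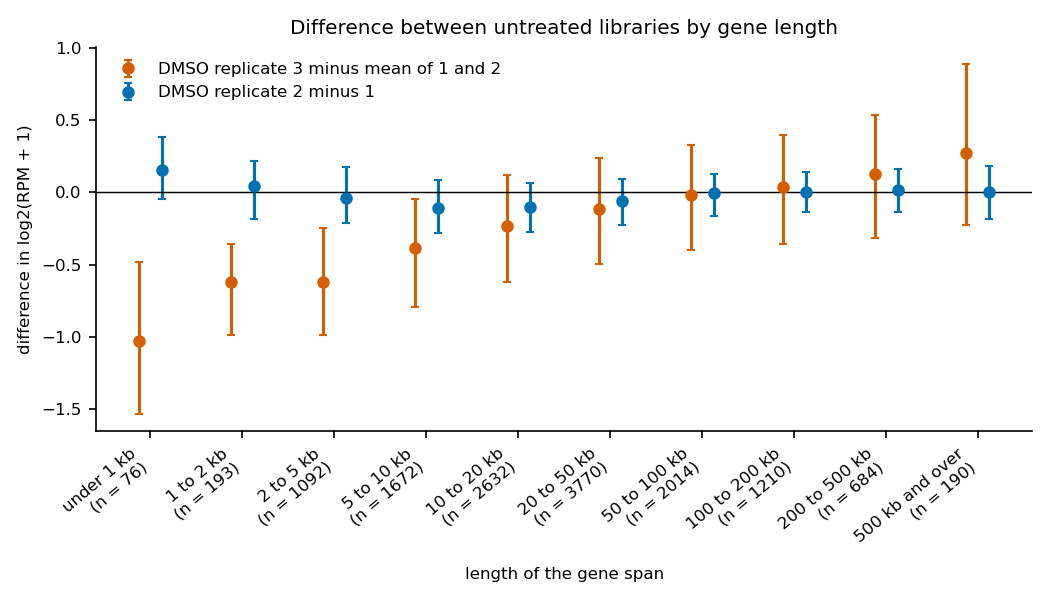
Median difference in log2(RPM + 1) by length of the gene span, with bars from the 25th to the 75th percentile of genes, for replicate 3 against the mean of replicates 1 and 2 and for replicate 2 against replicate 1. The medians of replicate 3 climb from -1.03 under 1 kb to 0.28 at 500 kb and over.

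Glycolysis and hypoxia genes were the cell-state group with the lowest median apart from the structured RNAs. Under low oxygen, HIF transcription factors bind sites with the core ACGTG near many of these genes, which code for glucose transporters, the enzymes that turn glucose into lactate, and factors such as Vegfa. All 24 genes tested of 26 listed were called lower in replicate 3, 17 of them were past 2-fold, and their median difference was -1.54. The same held with TMM factors (24 of 24 called lower) and for 22 of 24 with DESeq2. Over all genes tested, 28.6% were called lower and 7.79% were past 2-fold lower. The list was chosen with earlier results of these data known, so its count describes these libraries and is not independent evidence.

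By step of the pathway, Slc2a3, the high-affinity glucose transporter, was at 443, 505 and 118 RPM, and Pfkp, a phosphofructokinase, was at 721, 814 and 285 RPM. Gapdh was at 154, 163 and 25.9 RPM, a 6.11-fold lower level in replicate 3 (log2 difference -2.56 ± 0.17, adjusted p = 4.63e-50). Pgk1, the phosphoglycerate kinase on the X chromosome, was at 187, 196 and 54.96 RPM. In all of these replicates 1 and 2 lay close together and replicate 3 was far below. Of the HIF targets outside glycolysis, Vegfa, the vascular growth factor, was at 73.6, 64.7 and 12.99 RPM (log2 difference -2.32 ± 0.21, adjusted p = 4.06e-27). Bnip3, a mitophagy receptor, was at 50.4, 49.1 and 10.2 RPM, and Egln3, a prolyl hydroxylase that marks HIF for degradation, was at 35.8, 39.7 and 8.38 RPM. The smallest differences of the list were at Hk2, a hexokinase (252, 209 and 154 RPM, log2 difference -0.57), and Ldha, the lactate dehydrogenase A subunit (79.0, 72.2 and 48.4 RPM, log2 difference -0.63).

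The promoters of 4 members are shown because each holds the ACGTG core, on either strand, within the 250 bases before an annotated start. They were read from the RefSeq table (GRCm38.p6) and run 5′ to 3′ on the strand of the gene, with each match in capitals, from chrX:106186850-106187099 on the plus strand for Pgk1 and from chr7:138909507-138909756, chr12:54203875-54204124 and chr8:45999851-46000100 on the minus strand for Bnip3, Egln3 and Ankrd37.
Pgk1: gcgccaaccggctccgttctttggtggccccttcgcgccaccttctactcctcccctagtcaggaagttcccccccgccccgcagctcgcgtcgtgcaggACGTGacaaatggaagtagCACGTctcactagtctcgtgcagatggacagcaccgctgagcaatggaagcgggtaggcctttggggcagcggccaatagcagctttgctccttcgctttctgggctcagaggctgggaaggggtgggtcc
Bnip3: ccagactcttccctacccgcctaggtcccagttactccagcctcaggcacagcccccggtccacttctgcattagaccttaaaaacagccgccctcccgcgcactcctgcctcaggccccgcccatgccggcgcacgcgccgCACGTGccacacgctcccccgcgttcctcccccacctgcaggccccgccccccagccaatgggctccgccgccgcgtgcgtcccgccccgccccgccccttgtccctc
Egln3: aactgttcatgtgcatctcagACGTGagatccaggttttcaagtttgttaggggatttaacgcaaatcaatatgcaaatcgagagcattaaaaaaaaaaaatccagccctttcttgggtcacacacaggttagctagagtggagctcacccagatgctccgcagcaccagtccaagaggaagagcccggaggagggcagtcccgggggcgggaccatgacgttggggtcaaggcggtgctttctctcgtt
Ankrd37: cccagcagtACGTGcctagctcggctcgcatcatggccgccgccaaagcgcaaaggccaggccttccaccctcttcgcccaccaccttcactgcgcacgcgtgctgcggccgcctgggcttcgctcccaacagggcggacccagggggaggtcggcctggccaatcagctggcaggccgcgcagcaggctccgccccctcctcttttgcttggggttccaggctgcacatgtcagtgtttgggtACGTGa
Ankrd37, an ankyrin repeat protein, was at 4.92, 5.49 and 1.40 RPM. Gapdh, named above, held no match, and Vegfa held 1 before only 1 of its 2 annotated starts. Of the 24 genes tested, 22 had a promoter in the table and 12 of these (54.5%) held ACGTG on either strand, against 25.2% of the 10179 genes tested with a promoter. The unfolded protein response list had the same share, 6 of 11 (54.5%), and the ERK feedback, p53 and heat shock lists had 42.9%, 41.7% and 41.7%, so the share was not particular to the glycolysis and hypoxia list. It was 26.9% of 785 genes past 2-fold lower and 14.6% of 239 genes past 2-fold higher. CACGTG, the E-box that holds the core on both strands, was counted as a match as well. A match is a description of the letters in this window.

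Transcripts of translation and chromatin assembly were also lower. The histone and ribosomal counts are read against the 28.6% of all genes called lower and the 7.79% past 2-fold lower. Replication-dependent histone genes are short, lack introns and are expressed in S phase. Of 47 tested of 59 listed, 41 were called lower, none was called higher and 26 were past 2-fold (55.3%), with a median difference of -1.21. Hist1h1c, a linker histone, was at 25.5, 34.4 and 6.43 RPM, and Hist1h4a, a core histone H4 gene, was at 11.9, 12.2 and 1.54 RPM. The one member far on the other side was Hist1h2be at 7.79, 9.20 and 11.97 RPM (adjusted p = 0.20), whose span in the table is 37.5 kb and not that of a single histone exon. Near-identical copies of histone genes can share reads, so single members are uncertain.

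Of 82 cytoplasmic ribosomal protein genes tested of 87 listed, 69 were called lower and none higher, and 26 (31.7%) were past 2-fold, with a median of -0.83. Rps2 was at 48.1, 56.2 and 8.38 RPM and Rpl12 at 156, 165 and 37.5 RPM, while Rps29 was at 13.5, 17.1 and 18.1 RPM (adjusted p = 0.484). Many of these genes have pseudogene copies. The translation factors Eif4a1, an RNA helicase, at 1179, 1000 and 338 RPM and Eef1a1, the elongation factor that delivers aminoacyl-tRNA, at 444, 538 and 215 RPM were lower as well. For comparison, 20.7% of the 1205 protein-coding genes under 5 kb were past 2-fold lower, with a median of -0.66. The part of length in the histone and ribosomal counts was not tested.

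Counts of stress and growth-signal genes are read against the 28.6% of all genes called lower and the 12.9% called higher. ATF4 drives genes of amino acid supply when translation initiation is restrained. Of 25 of its targets tested, 16 were called lower, none higher and 10 past 2-fold, with a median of -0.81. Atf4 itself was at 46.6, 56.8 and 16.8 RPM (adjusted p = 9.26e-12), Chac1, a glutathione-degrading enzyme, was at 3.01, 5.14 and 0.419 RPM, and Trib3, a pseudokinase, was at 5.83, 7.99 and 7.40 RPM (adjusted p = 0.81). Of 12 unfolded protein response genes, 8 were called lower and none higher. Xbp1, the spliced transcription factor of that response, was at 36.8, 32.4 and 13.3 RPM, while Hspa5, the chaperone BiP, was at 58.2, 50.6 and 46.7 RPM (adjusted p = 0.386). Of 25 sterol and lipid synthesis genes, 18 were called lower and none higher (median -0.73). Insig1, a sterol sensor, was at 74.0, 78.6 and 28.7 RPM, and Msmo1, a sterol oxidase, was at 103.7, 106.1 and 36.23 RPM.

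Protein-coding genes under 5 kb had a median of -0.66, with 20.7% past 2-fold lower. The part of length in the stress and growth-signal counts was not tested. Immediate early genes are induced within minutes by serum and kinase signalling. Of 18 tested, 11 were called lower and 1 higher, with a median of -0.90. Fos was at 6.60, 11.1 and 0.652 RPM (adjusted p = 9.64e-16) and Dusp1, a MAP kinase phosphatase, was at 12.4, 15.4 and 4.01 RPM. Myc was the exception, at 6.02, 4.14 and 12.2 RPM (log2 difference 1.14 ± 0.30, adjusted p = 6.6e-04). Targets of ERK that feed back on the pathway were on the other side, with 6 of 10 called higher and 2 lower (median 0.54). Spry4, a Sprouty inhibitor, was at 46.9, 41.8 and 81.3 RPM, and Spred2 was at 310, 256 and 467 RPM, whereas Spry1 was at 10.6, 9.53 and 4.14 RPM and was called lower. Of 16 heat shock and chaperone genes, 4 were called higher and 6 lower, and the sign of their median, -0.10, turned to 0.08 with TMM factors. Hspd1, the mitochondrial chaperonin, was at 163, 149 and 245 RPM. Of 16 p53 targets, 7 were called lower and 1 higher, and of 9 interferon and RNA-sensing genes, 1 was called in each direction.

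Pluripotency genes differed in both directions. The counts for pluripotency, lineage and feeder genes are read against the 28.6% of all genes called lower and the 12.9% called higher. Of all genes, 7.79% were past 2-fold lower. Of 18 naive pluripotency genes, 9 were called lower and 2 higher (median -0.47), and 5 were past 2-fold lower. Dppa5a, an RNA-binding protein of naive cells, was at 31.6, 36.3 and 5.96 RPM, and Fgf4 was at 92.6, 100 and 36.0 RPM. Klf4, a naive network transcription factor, was at 58.6, 55.98 and 23.4 RPM (log2 difference -1.26 ± 0.20, adjusted p = 1.06e-08), and Tfcp2l1 was at 431, 455 and 251 RPM. Replicate 3 was the lowest in each of these. Nanog, at 81.9, 84.4 and 76.1 RPM, Esrrb, at 794, 730 and 694 RPM, and Pou5f1, which encodes OCT4, at 41.5, 41.1 and 33.6 RPM, did not pass the test (adjusted p = 0.579, 0.339 and 0.262). Sox2, a defining factor of these cells, was listed at 0 in all 3 libraries, as were Rpl26, Rpl30 and Rps27, ribosomal protein genes that every cell uses, so a listed 0 is not read as absence. Among 11 core pluripotency genes, 4 were called higher and 2 lower, with L1td1, an RNA-binding protein, at 150, 153 and 262 RPM and Lin28a, which blocks let-7 processing, at 30.8, 19.7 and 47.9 RPM.

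Of 14 formative and primed genes tested of 18, 7 were called higher and 1 lower (median 0.45). Lef1, a WNT-pathway transcription factor, was at 52.6, 52.9 and 149 RPM (log2 difference 1.48 ± 0.17, adjusted p = 8.52e-16), Fgf5, a marker of primed cells, was at 0.765, 0.571 and 3.40 RPM, and Dnmt3b, a de novo DNA methyltransferase, was at 149, 99.9 and 193 RPM. Otx2, a formative transcription factor, was at 19.7, 20.2 and 19.5 RPM (adjusted p = 0.932). The WNT-pathway repressor Tcf7l1, at 294, 242 and 738 RPM, belongs to the list of WNT targets and not to this one. It had the highest difference of the 8 WNT targets tested, of which 6 were below 0 (median -0.24). Pax6, a neural factor, was at 0.908, 0.749 and 4.33 RPM. Of the 6 mesoderm and neural genes tested of 14, 3 were called higher and none lower. Fgf5, Wnt3 and Pax6 were under 1 RPM in both other libraries and passed the filter only through replicate 3, so they had to be higher and give these counts no weight. None of the 17 genes of the 2-cell-like state in the table reached 1 RPM, 1 of 39 Hox genes did, and of 11 primitive endoderm genes tested 3 were called in each direction.

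Of 27 fibroblast genes, which mark the feeder cells, 12 reached a mean of 1 RPM, 4 were called lower and 1 higher, and their summed level was 134.3, 118.1 and 103.4 RPM. Postn, Acta2 and Dcn, which mark fibroblasts strongly, did not exceed 0.19 RPM, and Lum was listed at 0. Col6a1, a collagen of the list, was at 7.36, 10.7 and 0.186 RPM. Col5a2 went the other way, at 2.534, 2.497 and 6.38 RPM. In bulk samples fewer cells of a type and less RNA per cell cannot be told apart.

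For regulators of RNA and chromatin the counts are read against the same shares of all genes. Of 16 genes for m6A writers, readers and erasers, 2 were called higher and 1 lower (median -0.02), and Mettl3, the target of the inhibitor, was at 41.2, 39.1 and 30.3 RPM (adjusted p = 0.118). Of 19 genes of the NEXT, PAXT and exosome complexes, 2 were called higher and 3 lower. Among 21 Xist silencing factors and Polycomb genes, 6 (28.6%) were called higher and 3 lower (median 0.07), and 10 higher and 2 lower with TMM factors. The members past the test included Kdm2b, which recruits variant PRC1 to CpG islands, at 109, 83.0 and 277 RPM, Jarid2, a PRC2 cofactor, at 1222, 1318 and 2581 RPM, and Spen, the Xist A-repeat binding repressor, at 109, 115 and 191 RPM. Of 21 DNA replication genes 9 were called lower and 1 higher, and of 22 mitosis genes 11 were called lower and none higher, with Ccnb1 (cyclin B1) at 91.1, 102 and 36.1 RPM. Of 126 zinc finger genes from Zfp600 to Zfp999, 27 (21.4%) were called lower and 18 (14.3%) higher (median -0.09), and of 77 oxidative phosphorylation genes 29 were called lower and 3 higher (median -0.43), against a median of -0.18 for all genes.

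For the other lists the counts are read against the same shares of all genes, 28.6% called lower and 12.9% called higher. The 25 genes tested of the microRNA list lay near these shares, and GENCODE M21 gives none of them the microRNA type. Of 13 SR splicing factors 5 were called lower and 2 higher, of 10 BMP and Nodal targets 5 lower and 2 higher, of 8 WNT targets 2 in each direction, of 4 retinoic acid targets 1 lower, of 5 trophoblast genes 1 in each direction (the higher one, Plac1, passed the filter only through replicate 3), and of 25 microRNA genes 5 lower and 3 higher. Of 12 imprinted coding genes 3 were called higher and 2 lower, with Snrpn at 13.3, 14.7 and 44.5 RPM and Igf2r, the receptor imprinted by Airn, at 143, 155 and 59.6 RPM. No mitochondrially encoded gene was in the table.

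**Figure D3:**
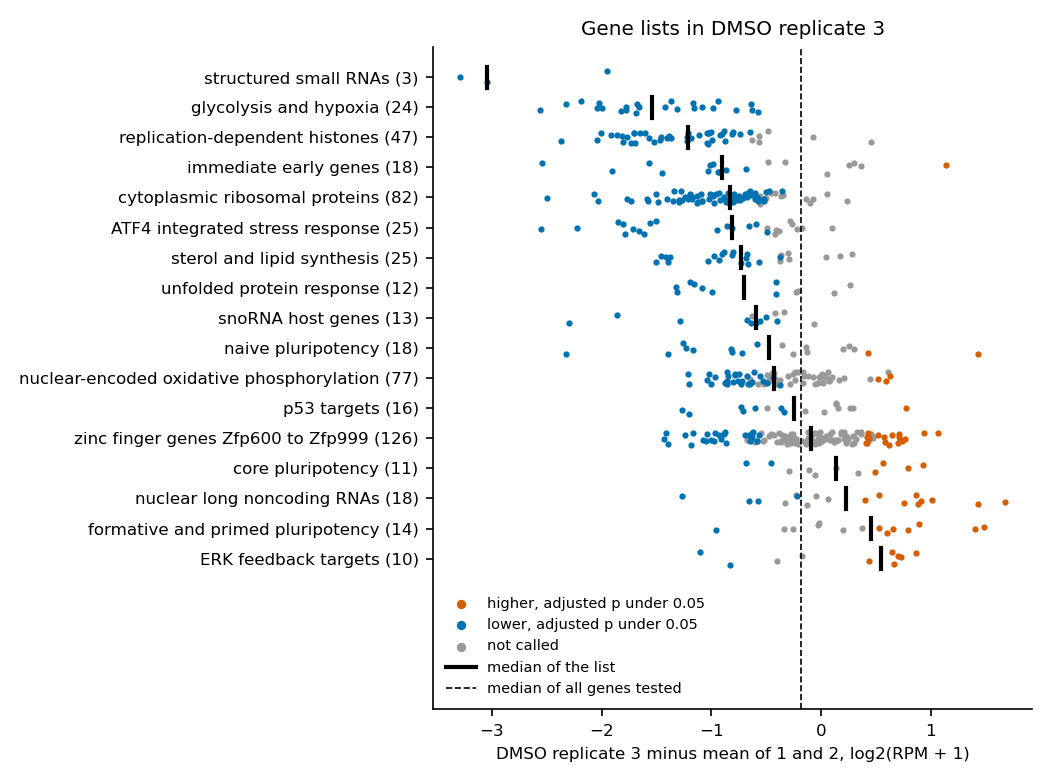
Difference of replicate 3 from the mean of replicates 1 and 2 in log2(RPM + 1) for the tested members of 17 gene lists, 1 point per gene, coloured by the limma call at an adjusted p under 0.05. The black bar is the median of the list and the dashed line the median of all genes tested, -0.18. All 24 glycolysis and hypoxia genes lie left of the dashed line.

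The end of chromosome 6 held a run of windows with lower levels in replicate 3. Among genes of at least 10 kb and 5 RPM, the 153 genes on chromosome 6 from 110 Mb to its end had a median difference of -0.44 (25th to 75th percentile -0.72 to -0.12), and 125 of them (81.7%) were lower in replicate 3. The 287 genes on chromosome 6 below 110 Mb had a median of -0.12 and the 8456 on other chromosomes had -0.08. In 10-Mb windows with at least 10 such genes, the last 4 windows of chromosome 6 were -0.46, -0.40, -0.37 and -0.53. Of 249 windows 18 were at or below -0.35, and no other chromosome had more than 2 of them in a row. Single windows were as low elsewhere, at -0.53 on chromosome 7 from 140 Mb and -0.52 on chromosome 2 from 180 Mb. The boundary was chosen after the values were seen. For replicate 2 minus replicate 1 the median of this region was -0.00249, and the median of 20 µM and 30 µM minus 10 µM was -0.45. With TMM factors the medians were -0.27 for the region and 0.09 for other chromosomes. Copy number was not measured, so a lower number of copies in part of the cells and lower expression cannot be told apart. The region holds Slc2a3, Gapdh, Tpi1, Eno2, Ldhb, Nanog and Dppa3. Without the members in it, the glycolysis and hypoxia list had 14 genes past 2-fold lower, 21 called lower of 21 and a median of -1.37, and the naive list had 4 past 2-fold lower and a median of -0.47.

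**Figure D4:**
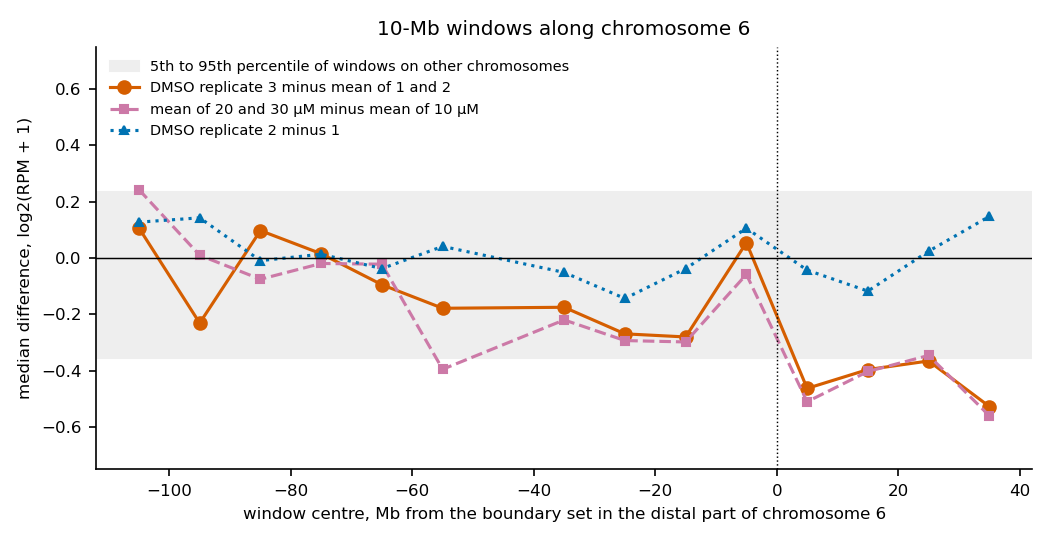
Median difference in log2(RPM + 1) in 10-Mb windows along chromosome 6, plotted against the distance of the window centre from the boundary, for replicate 3 against replicates 1 and 2, the 20 µM and 30 µM libraries against the 10 µM libraries, and replicate 2 against replicate 1. The grey band is the 5th to 95th percentile of 235 windows on other chromosomes, -0.355 to 0.234. The 4 windows right of the boundary lie at or below -0.37 in replicate 3.

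Xist, which spans 103460366 to 103483254 on the minus strand of chromosome X (GRCm38), was at 1540, 1690 and 3209 RPM, a 1.99-fold higher level in replicate 3 (log2 difference 0.99 ± 0.10, adjusted p = 4.57e-22). In the exact permutation test over the 3 libraries, two-sided, the p was 0.333, the smallest that 1 library against 2 can give. Tsix, its antisense partner, was at 461, 472 and 939 RPM, so the ratio of Tsix to Xist was 0.300, 0.279 and 0.293. The counting used strand. Jpx, a neighbouring noncoding RNA that activates Xist, was at 0.956, 0.928 and 4.24 RPM, and Firre, an X-linked RNA, was at 676, 631 and 271 RPM.

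The allelic ratio is the share of allele-specific reads from the inactive X (Xi), the Cast chromosome from which Xist is expressed, out of both alleles. The median ratio over 386 genes was 0.313, 0.307 and 0.269 in replicates 1, 2 and 3, a difference of -0.041 (exact permutation p = 0.333, two-sided, the smallest possible). The number of allele-specific reads behind each ratio is unknown. Replicate 3 was below both other libraries in 248 genes (64.2%), above both in 66 (17.1%) and between them in 72. In limma no gene passed an adjusted p under 0.05 (0% of 386), and 73 genes had an unadjusted p under 0.05, of which 63 were lower and 10 higher.

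The shift was spread unevenly along the chromosome and over levels. In the 140 to 180 Mb part, 73 of 87 genes (83.9%) were below both other libraries, against 41 of 81 (50.6%) in the first 40 Mb. Of the 97 genes with the highest RPM, 80 (82.5%) were below both, and of the 97 with the lowest RPM, 42 (43.3%). Multiplying ratio and RPM gave an estimate of each allele, on which the median log2 difference was -0.20 for the Xi and 0.05 for the active X (Xa), scaled as deposited. The median of all genes was -0.18 on that scaling and -0.015 with TMM factors, so which allele differs depends on the scaling, and the ratio does not. On the deposited scaling 245 genes were lower from the Xi and 182 from the Xa. Pgk1 had ratios of 0.292, 0.303 and 0.150, and Usp26, a deubiquitinase, had 0.447, 0.433 and 0.248. Eif1ax, a translation initiation factor, had 0.428, 0.425 and 0.277, and Dock11 had 0.366, 0.386 and 0.194. On the other side, Slc25a5, an ADP/ATP carrier, had 0.806, 0.798 and 0.945, and Uprt had 0.039, 0 and 0.204. Replicates 1 and 2 lay within 0.05 of each other in each of these genes.

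**Figure D5:**
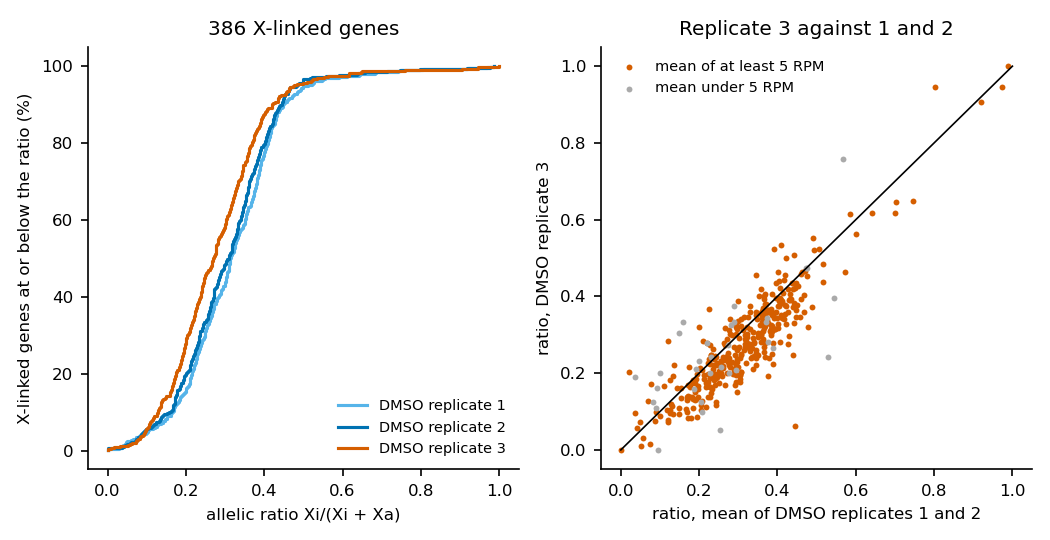
Left, percent of 386 X-linked genes at or below each allelic ratio Xi/(Xi + Xa) in each DMSO library. Right, the ratio of each gene in replicate 3 against the mean of replicates 1 and 2, with the line of equality. The curve of replicate 3 lies left of the others, with a median of 0.269 against 0.313 and 0.307.

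The 3 libraries shared their highest gene and many long genes near the top. The highest gene in every library was Malat1, a nuclear speckle RNA, at 11856, 11853 and 10174 RPM (log2 difference -0.22). Rian, a noncoding RNA of the imprinted Dlk1-Dio3 region, was the next in replicates 1 and 2, at 4518, 4732 and 4471 RPM in the 3 libraries (adjusted p = 0.695). Rmrp, at the levels given above, was the third in both of them. Long coding genes followed, with Exoc4, a subunit of the exocyst that spans 724 kb, at 2290, 2490 and 2718 RPM, Diap2, a formin, at 2367, 2378 and 2016 RPM, and Tenm4, a teneurin, at 1940, 1452 and 4194 RPM. Per kb of span, Malat1 (1617 RPM per kb) led the genes of at least 1 kb, followed by the snoRNA hosts Gas5 (245) and Snhg3 (208) and the translation factor Eif4a1 (153). Gas5 was at 919, 970 and 590 RPM, and Snhg3 was at 469, 492 and 132 RPM. The list counts that follow are read against the 28.6% of all genes called lower and the 12.9% called higher. The 13 snoRNA hosts had a median of -0.59, beside -0.62 for the 1092 genes of 2 to 5 kb. The part of length in this difference was not tested. The nuclear long noncoding RNAs as a list had 9 of 18 called higher and 4 lower (median 0.23), with Jpx among the higher passing the filter only through replicate 3, and including Neat1 at 341, 223 and 185 RPM.

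The overlap of the highest 100 genes was 86 between replicates 1 and 2, 68 between 1 and 3 and 65 between 2 and 3. The 100 highest genes took 13.04%, 13.46% and 15.4% of the read pairs. Genes at 100 RPM or more with the closest levels included Usp8, a deubiquitinase, at 176.3, 175.9 and 176.0 RPM, and Nup155, a nucleoporin, at 187, 187 and 190 RPM.

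The inhibitor libraries, none of which is a DMSO library, separated along the same genes. Across the 13533 genes, the difference between the mean of the 20 µM and 30 µM libraries and the mean of the 10 µM libraries followed the difference of replicate 3 from replicates 1 and 2, with r of 0.917 (Spearman's rho 0.912), given as a description across genes. All 334 genes past 2-fold higher in replicate 3 were higher at 20 µM and 30 µM than at 10 µM, 264 of them at least 2-fold, and all 1054 past 2-fold lower were lower there, 921 of them at least 2-fold. Rmrp was at 7494 and 6083 RPM in the 10 µM libraries and at 412 and 598 RPM at 20 µM and 30 µM, and Gapdh was at 144, 231, 24.7 and 26.9 RPM in the same order. The 2 sets of inhibitor libraries differ in dose as well, so dose and any other difference between the sets cannot be told apart. The labels number the 10 µM libraries 1 and 2, as they number the DMSO libraries, and give the 20 µM and 30 µM libraries no number.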

How the data were processed

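ChrRNA-seq values of 3 DMSO libraries were analysed. Read pairs matching rRNA were discarded by the authors (bowtie2), the others were mapped with STAR to an N-masked mm10 genome, and uniquely mapped pairs on the gene's strand were counted over whole transcripts (featureCounts). The deposited expression values are these counts as RPM. Alleles were split by SNPs, and the deposited allelic ratio is a fraction, Xi/(Xi + Xa), for genes with at least 10 SNP-covering reads. Which tool version and rRNA removal kit each library had is not given in the sources used here.

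The step of the low RPM values gave back whole read pairs (100% of values above 0, tolerance 0.02 of a step). The filter was a mean of 1 RPM. Replicate 3 minus the mean of replicates 1 and 2 was fitted in limma 3.58.1 (R 4.3.3, eBayes with trend) on log2(RPM + 1), where folds of low genes come out too small, with Benjamini-Hochberg adjusted p under 0.05. For ratios, limma was fitted to log2 of ratio/(1 - ratio), kept between 0.01 and 0.99. edgeR 4.0.16 and DESeq2 1.42.0 on recovered read pairs, TMM factors, other filters and pseudocounts and left-out replicates were alternatives. Lengths are gene spans, exons come from GENCODE M21 (22125 of 22556 genes matched) and promoters from RefSeq (10179 of the 13533 genes tested had one). The fits were tested on simulated data. Other steps used Python 3.11.15, pandas 2.3.3, scipy 1.17.1 and matplotlib 3.10.9.

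Named genes are examples from the 20 highest and 20 lowest differences among called genes of at least 5 RPM that lay 2-fold outside both other libraries, the 15 highest levels, the 10 highest per kb among spans of at least 1 kb, up to 4 members with the largest differences in each direction and the defining members of each list, the 10 largest ratio differences each way, up to 10 genes of at least 100 RPM with the closest levels, Xist and Tsix. Members and lists were chosen with earlier results of these data known. The promoter search, the chromosome 6 boundary and the list counts without that region were chosen after seeing the data.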

Additional observations from a re-analysis of the deposited data

How the results depend on the processing

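The number of genes called was 5618, and 5720 with a pseudocount of 0.1, 4456 with a mean of at least 5 RPM, 5560 with TMM factors, 5532 with edgeR and 5036 with both 10 µM libraries as a group of their own. It was 3413 with DESeq2 (1857 higher and 1556 lower), which changes the model and the scaling together. The share of calls that were higher was 31.0%, and 49.0% with TMM factors and 54.4% with DESeq2. With no filter it was 0, with 6228 genes at an unadjusted p under 0.05 and a smallest adjusted p of 0.0853, and the cause was not tested. With the 10 µM libraries, a dose term and the replicate block, which pairs DMSO and 10 µM libraries 1 and 2, it was 8450 (2831 higher and 5619 lower).

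Genes past 2-fold higher were 334, and 526 with TMM factors, and genes past 2-fold lower were 1054, and 1608 with a pseudocount of 0.1. Leaving out replicate 1 or 2 gave 419 to 550 higher (550 without replicate 1) and 1420 to 1474 lower, by construction more, since the gene then has to pass only 1 library. The same settings gave a Xist log2 difference of 0.92 to 1.06, a median ratio difference of -0.045 to -0.038 and a length rho of 0.285 to 0.339. Calls could not be tested without a replicate, since no residual degree of freedom was left. Allelic calls were 0 under each of 3 alternatives, with 72 to 80 genes at an unadjusted p under 0.05. Depth limits low genes, for which 1 read pair was 0.0357 to 0.0478 RPM.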
